A study of Mus musculus with 3 samples.

Results

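Activated dendritic cell bins were examined in spatial transcriptomes of the thymus. They were chosen by their own transcripts: the sections were divided into squares of 27 µm (bins), bins were kept if they had 300 or more genes and no more than 30% of mitochondrial transcripts, and a kept bin was a member when it held at least 2 transcripts in total from at least 2 of the 4 genes *Fscn1*, *Ccl22*, *Ccl17* and *Il4i1*. This rule selected 713 of 56744 bins, namely 315 of 12044 in the section labelled KO1134, 178 of 17425 in the section labelled KO1308 and 220 of 27275 in the section labelled WT1101. The KO1134 and KO1308 sections came from *Trp53*-/- mice aged 17 and 21 weeks, and the WT1101 section from a *Trp53*+/+ mouse aged 17 weeks. All 3 mice were female C57BL/6 and each gave 1 thymus section, so a genotype is represented by 2 KO mice and 1 WT mouse, and 1 KO mouse was older than the others. Identities and ages are those of the labels, and the disease stage of each KO section was not settled from the sources used here. The positions of the spots carry no unit, so the scale behind all values in µm and mm, the bin width included, is assumed. A bin can hold several cells of different types, or parts of them, so a member bin is a small piece of tissue and not a cell.

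Dendritic cells take up and present antigen. When activated they raise MHC class II and costimulatory molecules, gain the chemokine receptor CCR7 and move towards its ligands. In the thymus, conventional dendritic cells of the medulla present self antigens, including those that medullary epithelial cells make under the control of *Aire*, and so take part in the deletion of self-reactive thymocytes and the generation of regulatory T cells. *Fscn1* encodes fascin, an actin-bundling protein of the dendrites of mature cells. *Ccl22* and *Ccl17* encode the ligands of CCR4, a receptor of thymocytes entering the medulla and of regulatory T cells. *Il4i1* encodes a secreted amino acid oxidase.

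Transcripts are given as unique molecular identifiers (UMIs), which count a captured molecule a single time. The 3 sections summed to between 21089885 and 41581477 UMIs, and the median bin held between 834 and 2641 UMIs. *Trp53* stood at 17.0 and 25.3 CPM (UMIs of a gene scaled to 1e+06 UMIs of the bins summed) over all bins of KO1134 and KO1308, and at 79.8 CPM in WT1101. The time of tissue permeabilisation differed between WT and KO tissue, and there was 1 WT section, so no test was made between genotypes and genotype cannot be told apart from permeabilisation or section. Intervals in brackets are 95% exact Poisson (CPM) or binomial (shares) intervals and cover counting error only.

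The 4 genes that chose the members were sparse, and their values are given as a description. *Fscn1* (chr5:142960343-142973185, plus strand, GRCm38) stood at 43.1, 62.8 and 22.9 CPM over all bins of KO1134, KO1308 and WT1101. *Ccl22* (chr8:94745590-94751699, plus strand) stood at 11.3, 16.8 and 15.2 CPM in the same order. *Ccl17* (chr8:94810453-94812036, plus strand), which lies next to *Ccl22* with only *Cx3cl1* of the genes listed here between them, was the rarest of the 4, at 4.40, 6.56 and 3.03 CPM. *Il4i1* (chr7:44816387-44840809, plus strand) was the most frequent of the 4 in each section, at 62.6, 63.9 and 57.0 CPM. The *Fscn1* level was thus lowest in the WT section, whereas that of *Il4i1* was close to the same in all 3.

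*Il4i1* behaved unlike the others in where it was found. Surroundings were classed from the 7 × 7 bins around a bin, leaving out the bin itself: lymph-node-like where UMIs of the B cell genes *Cd79a*, *Cd79b* and *Ms4a1* outnumbered those of 6 thymus genes, otherwise medulla-like where 6 medullary epithelial genes had at least 2 times their share in the section, otherwise cortex-like where the thymus genes had at least their share in the section, and other for the rest. In WT1101, *Fscn1* stood at 124 CPM in medulla-like and 6.28 CPM in cortex-like surroundings. *Ccl22* stood at 83.4 and 3.43 CPM, and *Ccl17* at 16.2 and 0.661 CPM, in these surroundings of WT1101. *Il4i1* stood at 57.3 CPM in medulla-like and 56.7 CPM in cortex-like surroundings of WT1101. The KO sections had the same order for *Fscn1*, with 161 against 13.6 CPM in KO1134 and 203 against 21.3 CPM in KO1308, and a small difference for *Il4i1*, with 84.5 against 63.1 CPM and 78.1 against 66.0 CPM. In the GENCODE M21 annotation of GRCm38, *Il4i1* shares 14426 bases with *Nup62* on the same strand and overlaps *Tbc1d17* on the opposite strand. *Nup62*, which encodes a nuclear pore protein, was counted at 41.0, 40.7 and 49.8 CPM, so reads credited to *Il4i1* could come from either gene and its counts are uncertain.

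**Figure D1:**
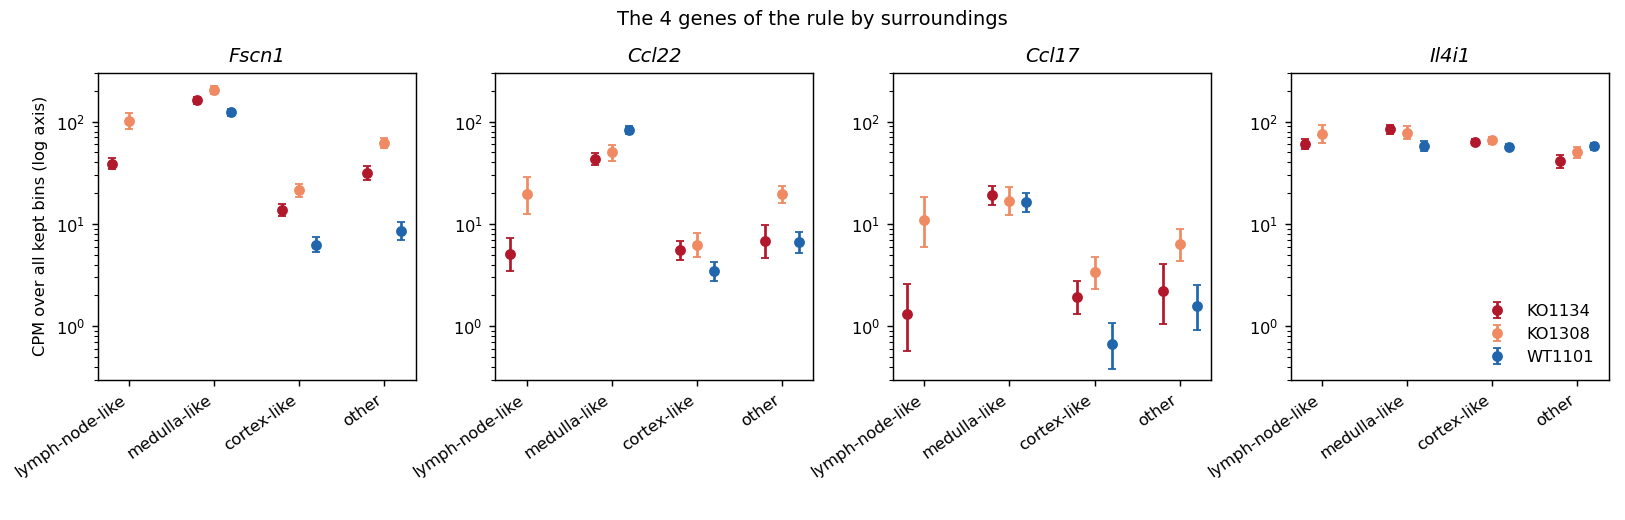
CPM (log axis) of each gene of the rule over all kept bins, by surroundings, in the 3 sections. Points are sums over bins and bars are exact Poisson intervals (95%), and WT1101 has no lymph-node-like bins. Fscn1, Ccl22 and Ccl17 are highest in medulla-like surroundings of each section, whereas Il4i1 lies between 41.3 and 84.5 CPM everywhere.

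The members therefore differed in which genes made them members. A member held *Fscn1* in 84.4%, 82.0% and 77.7% of cases in KO1134, KO1308 and WT1101, and *Il4i1* in 76.2%, 67.4% and 49.1%. *Ccl22* was found in 35.2% and 39.9% of the KO members and in 62.7% of the WT members. *Ccl17* was found in 12.7%, 16.3% and 20.5%. The commonest pair was *Fscn1* with *Il4i1* in the KO sections (61.9% and 50.6% of members), and *Fscn1* with *Ccl22* in the WT section (42.7%). In KO1134, KO1308 and WT1101, 19.2%, 9.50% and 9.24% of *Fscn1* bins held *Il4i1*, against 13.8%, 6.19% and 7.76% of all bins. *Ccl22* was held by 7.10%, 5.17% and 11.7% of *Fscn1* bins, against 2.22%, 1.54% and 1.80% of all bins. How many pairs met in a bin by coincidence was not tested. Without *Il4i1*, 31.1%, 37.1% and 57.7% of the members would still have met the rule. No member held all 4 genes, and 27, 10 and 22 members held 3 of them. Most members sat at the threshold of the rule, with exactly 2 UMIs in 56.5%, 65.2% and 65.5%. The highest count of 1 gene was 15 UMIs of *Ccl22* in 1 WT bin.

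The share of bins that were members was 2.62% (2.34 to 2.92) in KO1134, 1.02% (0.878 to 1.18) in KO1308 and 0.807% (0.704 to 0.92) in WT1101. This share depends on the depth of a bin. After every bin was thinned to 1000 UMIs, with shallower bins left out, it was 0.695% (0.546 to 0.871), 0.952% (0.74 to 1.21) and 0.411% (0.323 to 0.517). At 500 UMIs the shares were 0.219%, 0.213% and 0.251%, with overlapping intervals. The first place of KO1134 was therefore not kept at equal depth, and no order of the sections held at both depths. Thinning left 10654, 7144 and 17745 bins at 1000 UMIs and 11873, 13614 and 24350 bins at 500 UMIs. The thinned shares thus cover a different part of each section. Members held a median of 2940, 1644 and 1519 UMIs.

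Medulla-like surroundings were more frequent among members than among all bins of each section. In KO1134, 62.9% (57.3 to 68.2) of the members had medulla-like surroundings, against 14.9% of all bins. In KO1308 the share was 47.8% (40.2 to 55.4) against 14.8%, and in WT1101 it was 77.3% (71.2 to 82.6) against 21.2%. Counted the other way, KO1134 had 198 members among 1799 medulla-like bins and 49 among 5839 cortex-like bins (0.839 for each 100). For each 100 bins there were 3.30 medulla-like and 0.255 cortex-like members in KO1308, and 2.95 and 0.268 in WT1101. In each KO section 14.0% of the members had lymph-node-like surroundings, which the WT section lacked. The remaining members were in cortex-like (15.6%, 12.9% and 17.3%) or other surroundings (7.62%, 25.3% and 5.45%).

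**Figure D2:**
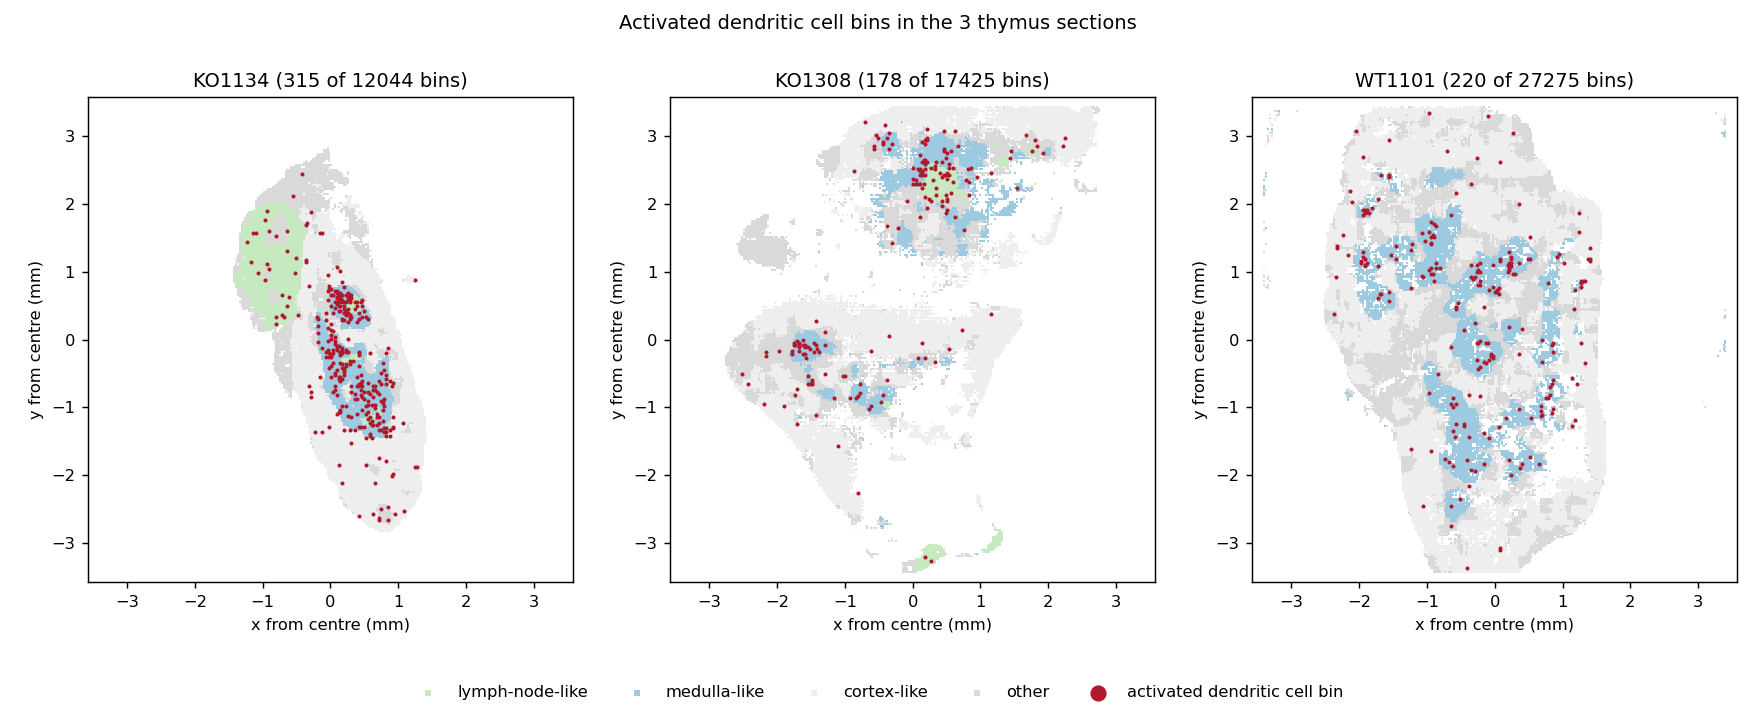
Position of the members (red) among all kept bins of the 3 sections, on axes in mm from the centre of each section and drawn to 1 scale. Light shades mark the surroundings, and members gather in the medulla-like areas, with 198, 85 and 170 members there in KO1134, KO1308 and WT1101.

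Members also lay near each other. For comparison, 5 bins without a UMI of the 4 genes were taken for each member from the same section, matched on their UMIs (1575, 890 and 1100 matched bins). The median distance from a member to the nearest other member was 38.2, 60.4 and 60.4 µm in KO1134, KO1308 and WT1101. From a matched bin to the nearest member it was 121, 191 and 218 µm. Of the members, 54.9%, 32.0% and 42.3% touched another member, against 13.0%, 9.66% and 4.27% of the matched bins. Only 11.2%, 10.2% and 18.1% of the matched bins had medulla-like surroundings, and the part of shared surroundings in this closeness was not tested. The largest number of members touching 1 member was 5.

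The label was checked with 20 genes of activated dendritic cells that the rule did not use, summed over all bins on each side of the threshold. In WT1101 their level was 805 CPM in bins without a UMI of the 4 genes, 932 CPM with 1 UMI, 1154 CPM with 2 or more UMIs from 1 gene, 1850 CPM in members with 2 UMIs and 2594 CPM in members with 3 or more. The same steps gave 1315, 1610, 1877, 2279 and 2916 CPM in KO1134. In KO1308 they gave 1054, 1392, 1649, 1877 and 2413 CPM. The level was higher at each step than at the one before in all 3 sections. *Aire*, of medullary epithelium, also stood higher at the last step than in bins without a UMI, though not at every step in the KO sections. It went from 13.6 to 57.2 CPM in KO1134, 34.8 to 57.9 CPM in KO1308 and 8.46 to 66.5 CPM in WT1101. The part of medullary position in these steps was not tested. The 20 genes were chosen with earlier results of these data known, and were measured in the same bins that the rule chose. The depth of a bin also moves with the step (median 792 to 1848 UMIs in KO1308). *Lamp3*, a defining marker of mature dendritic cells, had 0 UMIs in the members of each section, which allows up to 3.17, 9.76 and 8.78 CPM, and it was nearly as rare elsewhere (0.61, 0.759 and 0.32 CPM over all bins).

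**Figure D3:**
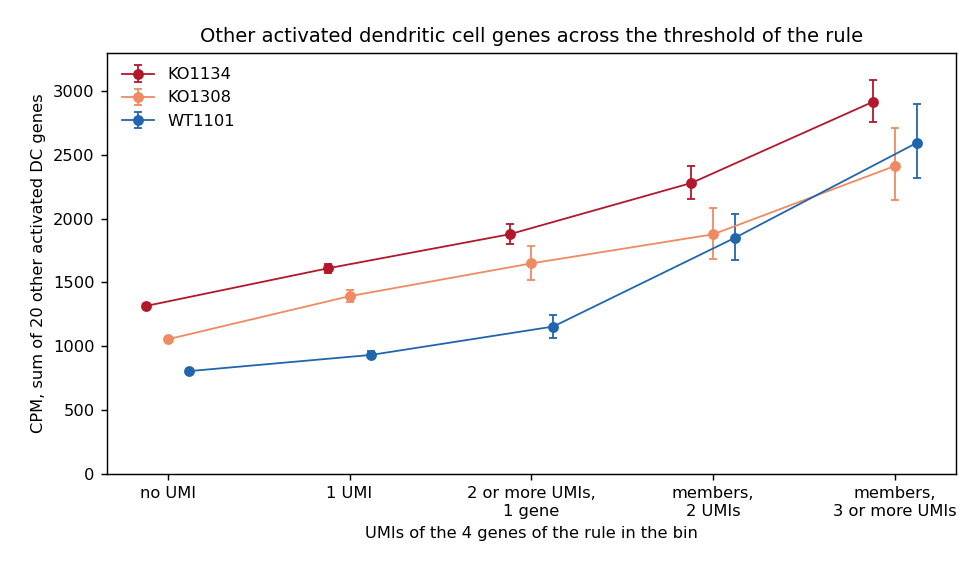
Summed CPM of 20 activated dendritic cell genes outside the rule, by the UMIs of the 4 genes of the rule in a bin, in the 3 sections, with exact Poisson intervals (95%). The level climbs from 1315, 1054 and 805 CPM in bins without a UMI to 2916, 2413 and 2594 CPM in members with 3 or more UMIs.

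Gene by gene, members were compared with the matched bins over the 3 sections in 1 model with the section as a block (edgeR quasi-likelihood test, 2-sided, Benjamini-Hochberg adjusted over all genes tested, call at 0.05). The 4 genes of the rule were left out. Of 14764 genes tested, 766 were higher in members (5.19%) and 669 were lower (4.53%), and the median log2 fold change of all genes was -0.06. The spread is that between 3 sections of 3 mice and is shared across genes. With DESeq2, 273 genes were higher and 109 lower. Matched bins were mostly outside the medulla, and when they were drawn from the same kind of surroundings as their member (same-surroundings bins), 120 genes were higher and 108 lower. Counts against same-surroundings bins are therefore given beside those of each list. Surroundings were classed by medullary epithelial, B cell and thymus genes in the bins around, so lists of these cells and dendritic cell lists are not treated alike.

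The other activated dendritic cell genes were higher together. Of the 20, 19 were tested, 18 were higher and none was lower, with a median log2 fold change of 1.67. *Ccr7*, the receptor that guides mature dendritic cells, stood at 179.8, 172 and 202 CPM in the members of KO1134, KO1308 and WT1101, against 86.9, 34.5 and 37.4 CPM in matched bins. It rose by 1.69 ± 0.18 on the log2 scale (SE; edgeR, adjusted p = 1.2e-13). Which cells of a bin held *Ccr7* was not tested. *Cacnb3*, a calcium channel subunit, stood at 74.0, 68.3 and 61.4 CPM against 12.3, 20.8 and 12.3 CPM (2.23 ± 0.26; edgeR, adjusted p = 5.9e-12). *Gadd45b*, a stress-response gene, stood at 125, 55.3 and 64.4 CPM against 30.0, 16.9 and 12.9 CPM (1.99 ± 0.23). *Bcl2a1b*, of the anti-apoptotic BCL2 family, rose by 1.94 ± 0.23. These 4 genes were named for the smallest p of the list in this same comparison. In none of them did the members of any section overlap the matched bins of any section. The same held for the epithelial genes *Aire*, *Krt14* and *Epcam*, and the share of all genes that separate in this way was not counted. Only *Il7r* did not pass, with 357, 231 and 199 CPM against 368, 128 and 108 CPM (0.40 ± 0.15; edgeR, adjusted p = 0.071). Against same-surroundings bins 14 of 19 were higher (median 0.78).

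Part of the costimulation and NF-κB genes were higher. Of 7 costimulatory and checkpoint ligands tested, 4 were higher and none lower (median log2 fold change 1.16), but only 1 of 9 against same-surroundings bins (median 0.23) and 2 of 7 in DESeq2. *Icosl*, the ligand of ICOS on T cells, stood at 57.1, 91.1 and 41.0 CPM in members and at 21.8, 25.4 and 5.27 CPM in matched bins (1.72 ± 0.26; edgeR, adjusted p = 1.1e-07). *Icam1*, an adhesion molecule, *Cd40* and *Cd86*, which signal between dendritic cells and T cells, rose by 1.22, 1.05 and 0.88 on the log2 scale. *Cd274*, which encodes PD-L1, did not pass (53.9, 81.3 and 35.1 CPM against 37.9, 44.9 and 30.4 CPM; edgeR, adjusted p = 0.18). Of 15 NF-κB and CD40 signalling genes, 10 were higher and none lower (median 0.70), against 2 of 15 with same-surroundings bins (median 0.32) and 5 of 15 in DESeq2. *Relb*, the NF-κB subunit needed for medullary epithelium and dendritic cells, stood at 124, 97.6 and 93.6 CPM against 35.7, 45.5 and 20.5 CPM (1.64 ± 0.21; edgeR, adjusted p = 3.9e-10). *Traf1*, an adaptor of the TNF receptor family, *Nfkb2* and *Nfkbia* rose by 1.55, 1.13 and 0.74, whereas *Nfkb1* did not pass (0.32 ± 0.15; edgeR, adjusted p = 0.19).

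Antigen presentation genes, which were abundant, were higher too. Of 12 MHC class II presentation genes, 8 were higher and none lower (median 0.89), and 5 of 12 against same-surroundings bins (median 0.19). *Cd74*, the invariant chain, reached 3952, 3483 and 2185 CPM in members, against 1838, 1710 and 761 CPM in matched bins. *H2-Aa* stood at 1698, 1535 and 1027 CPM against 788, 808 and 319 CPM, and *H2-Eb1* at 1842, 1249 and 1246 CPM against 868, 625 and 353 CPM. The protease *Ctss* rose by 1.24 ± 0.13 on the log2 scale. Class II genes are shared with B cells, macrophages and medullary epithelium. Among 7 cytokine and tryptophan catabolism genes tested, 3 were higher: *Kynu*, an enzyme of tryptophan breakdown, by 2.12 ± 0.44, *Il15ra* by 1.33 ± 0.26 and *Il15* by 1.09 ± 0.32. *Il15ra* presents *Il15* to lymphocytes. Against same-surroundings bins edgeR called none of 7 (3 at an unadjusted p under 0.05). *Ido1*, *Il12b* and *Il6* had at most 2 UMIs each in the members of a section and were not tested.

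Genes of conventional dendritic cell subsets were higher in part, and fewer passed within the same surroundings. All 7 genes shared by dendritic cell subsets were higher (median 1.16; 4 of 7 without WT1101 and 4 of 7 against same-surroundings bins), of which *H2-Aa* and *Cd74* are also class II genes, including *Cst3*, a protease inhibitor abundant in dendritic cells, at 1545, 901 and 1349 CPM against 899.6, 552 and 486 CPM. Of 10 cDC1 genes, which include *Cst3* and *Batf3* of the shared list, 6 were higher (median 0.71), against 3 of 10 without WT1101, 2 of 10 with same-surroundings bins (median 0.23) and 2 of 10 in DESeq2. *Batf3*, a transcription factor needed for cDC1, rose by 2.01 ± 0.32 (44.4, 45.5 and 35.1 CPM against 11.6, 10.4 and 7.02 CPM; edgeR, adjusted p = 3.7e-07) and *Wdfy4*, needed for cross-presentation, by 0.61 ± 0.19. *Xcr1*, the chemokine receptor that defines cDC1, did not pass (34.9, 19.5 and 38.0 CPM against 21.8, 15.0 and 12.3 CPM; edgeR, adjusted p = 0.086). Of 7 cDC2 genes tested, 3 were higher (median 0.97): *Ccr2* by 1.28, *Itgax*, the CD11c integrin, by 0.97, and *Irf4* by 0.85. None of the cDC2 genes passed against same-surroundings bins in edgeR (0 of 9, median 0.09, 1 at an unadjusted p under 0.05) or against matched bins in DESeq2 (3 at an unadjusted p under 0.05). *Sirpa*, a cDC2 marker also found on macrophages, did not pass (0.47 ± 0.21; edgeR, adjusted p = 0.16). Of 8 plasmacytoid dendritic cell genes, 2 were higher (*Spib* by 1.69 and *Irf7* by 0.94) and the median of -0.06 was that of all genes. Against same-surroundings bins 1 of 8 was higher (median -0.03).

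Chemokines other than the rule's moved in both directions. Of 12 tested, 7 were higher and 2 lower (median 1.22), and 3 higher and 1 lower against same-surroundings bins (median 0.26). *Ccl5*, which attracts T cells, had the smallest p-value of the chemokines, at 1746, 621 and 366 CPM in members against 460.1, 148 and 66.1 CPM in matched bins (2.06 ± 0.14; edgeR, adjusted p = 1.4e-25). *Ccl21a*, a ligand of CCR7 made by medullary epithelium, stood at 1237, 868 and 491 CPM against 454, 260.3 and 95.9 CPM. Its symbol covers 2 identifiers of near-identical copies, which were summed. *Cxcl16*, the ligand of CXCR6, rose by 1.56 ± 0.19, and the interferon-induced *Cxcl10* by 1.69 ± 0.24. The lower ones are known from cortical epithelium and stroma, though their source was not measured here. *Ccl25*, the ligand of CCR9, fell by 0.87 on the log2 scale (391, 224 and 398 CPM against 529, 521 and 763 CPM), and *Cxcl12* fell by 0.88. Of 8 chemokine receptors tested, *Ccr7*, *Cxcr3* (1.51 ± 0.25) and *Cxcr6* (1.06 ± 0.27) were higher and *Ccr9*, of cortical thymocytes, fell by 0.58, with 2 higher and 0 lower (3 of 8 at an unadjusted p under 0.05 in either direction) against same-surroundings bins. *Cxcr6* was not higher in WT1101, where members held 1 UMI of it. *Ccr4*, the receptor of the 2 chemokines of the rule, had 2, 0 and 2 UMIs in the members and was not tested.

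Interferon response genes were higher in 11 of 12 cases, with none lower (median 0.86), but edgeR called 0 of 12 against same-surroundings bins (median 0.29, 7 at an unadjusted p under 0.05), DESeq2 called 3 of 12 against matched bins, and without KO1134 7 of 12 passed. *Irf7*, a transcription factor of the interferon response, stood at 237, 182 and 117 CPM against 159, 88.5 and 30.4 CPM. *Irf1* and *Gbp2* rose by 0.81 and 0.95 on the log2 scale. In each of these 3 genes the members of a section exceeded its own matched bins.

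**Figure D4:**
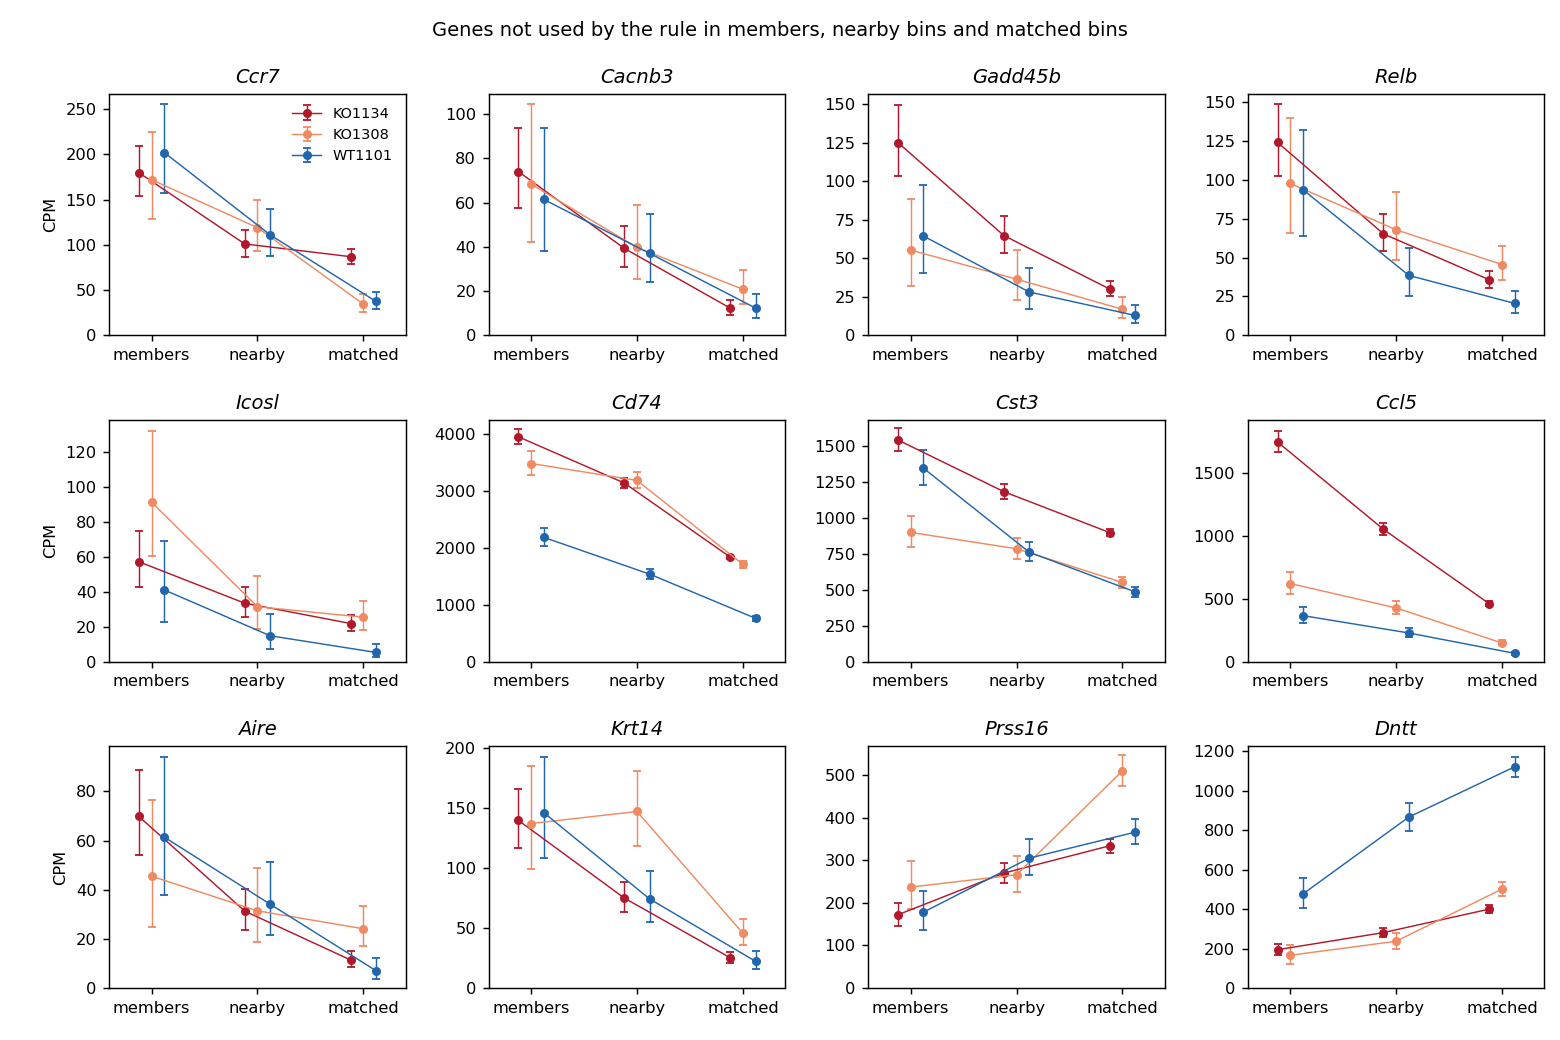
CPM of 12 genes outside the rule in members, nearby bins (2 to 5 bins away) and matched bins of the 3 sections, with exact Poisson intervals (95%) and each panel starting at 0. Dendritic cell and epithelial genes step down from members to matched bins, except that Krt14 in KO1308 has 137 CPM in members and 147 CPM nearby, and Prss16 and Dntt step up.

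The members also carried transcripts of cells that are not dendritic. Medullary epithelial genes were higher with a median close to that of the activated dendritic cell genes: of 9 tested, 7 were higher and none lower, with a median of 1.69, and their sum was 1000 to 1917 CPM in members against 259.8 to 660.5 CPM in matched bins. *Aire*, which drives tissue-restricted genes in medullary epithelium, stood at 69.8, 45.5 and 61.4 CPM against 11.4, 24.1 and 7.02 CPM (2.19 ± 0.28; edgeR, adjusted p = 3.4e-10). *Krt14*, a keratin, stood at 139.6, 137 and 146 CPM against 25.2, 45.5 and 22.2 CPM, and *Epcam*, an epithelial adhesion molecule, rose by 1.69 ± 0.21. *Ivl* was not tested, with at most 1 UMI in the members of a section. Members thus held both cell types' transcripts, and the part of epithelium in the dendritic cell results was not tested. Against same-surroundings bins, 3 of the 9 epithelial genes were higher, with a median of 0.42, and the median of the activated dendritic cell genes was 0.78. These medians cannot be compared directly, because medullary epithelial genes in the bins around were used to class the surroundings.

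Of 10 macrophage genes, 5 were higher (median 0.52), against 1 of 10 with same-surroundings bins (median 0.12), and their sum was 3645 to 4710 CPM in members against 1539 to 3244 CPM in matched bins. *Lyz2*, which encodes lysozyme and is also found in dendritic cells, rose by 1.22 ± 0.14 (1611, 1089 and 1261 CPM against 973, 499 and 308 CPM), and the complement genes *C1qa* and *C1qb* and the lipid carrier *Apoe* rose by 0.76, 0.72 and 0.70. None of the 8 B cell genes passed in edgeR (3 at an unadjusted p under 0.05) or in DESeq2 (2), but this depended on KO1134, without which 3 of 7 were higher and the median went from 0.59 to 1.37. In bins of 50 µm 7 of 8 were higher, and without lymph-node-like surroundings 2 of 7. Against same-surroundings bins edgeR called 0 of 8 B cell genes (median -0.11, 1 at an unadjusted p under 0.05). *Cd79a* stood at 114, 143 and 64.4 CPM against 120.4, 89.8 and 12.9 CPM (edgeR, adjusted p = 0.13) and *Cd79b* had a log2 fold change of -0.01 ± 0.22. Plasma cell genes were lower in 3 of 8 cases with none higher (1 of 7 without KO1134, 1 of 8 in DESeq2, 3 of 8 against same-surroundings bins). *Ighm*, the heavy chain of IgM, fell by 0.84, the joining chain *Jchain* by 0.58 and the IgA heavy chain *Igha* by 0.40. Of 8 endothelial genes, *Glycam1*, of high endothelial venules, fell by 1.16, with no UMI in either kind of bin of WT1101, and no other passed. Without KO1134 edgeR called 0 of 7 endothelial genes and DESeq2 called 0 of 8, with none at an unadjusted p under 0.05 in either. Against same-surroundings bins 1 of 8 endothelial genes was lower in edgeR (median -0.40, 4 at an unadjusted p under 0.05). Of 8 fibroblast genes, 3 were higher (median 0.62; 0 of 8 against same-surroundings bins in edgeR, with 0 at an unadjusted p under 0.05, and 1 of 8 in DESeq2), among them the collagens *Col6a1* (1.17 ± 0.24) and *Col1a2* (0.84 ± 0.23).

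Of 8 cortical thymocyte genes, 5 were lower than in matched bins and none was higher (median -1.01). Of the matched bins, 53.9% to 55.5% were cortex-like, and against same-surroundings bins 1 of 8 was lower (median -0.35). *Dntt*, the polymerase that adds bases to T cell receptor joints, stood at 194, 166 and 477 CPM in members against 400.0, 502 and 1122 CPM in matched bins (-1.31 ± 0.14; edgeR, adjusted p = 1.5e-13). *Rag1*, of the same recombination step, fell by 1.14, *Arpp21* by 1.28 and *Cd8b1* by 0.79 on the log2 scale. Cortical epithelial genes were lower in 4 of 8 cases and higher in none (median -0.59; 3 of 8 and -0.24 against same-surroundings bins), with *Prss16*, a thymus protease, at 172, 237 and 178 CPM against 334, 510.1 and 366 CPM and the thymoproteasome subunit *Psmb11* lower by -0.97 ± 0.19. Of 9 mature thymocyte genes tested, *Cd52*, *Ms4a4b* and *Itgb7* rose by 0.76, 0.54 and 0.66, but 6 genes were higher without KO1134, 1 without KO1308, 1 without WT1101 and 0 against same-surroundings bins (2 of 9 at an unadjusted p under 0.05 in either direction, edgeR). Of 9 regulatory T cell genes tested, 3 were higher (median 0.66): *Tnfrsf4*, which encodes OX40, by 1.80 ± 0.27, *Capg* by 1.24 ± 0.21 and *Ctla4* by 0.66 ± 0.22. Without KO1134 1 of 8 passed, as did 1 of 8 against same-surroundings bins. *Il2ra* and *Ikzf2* did not pass (log2 fold changes of -0.07 and -0.03), and *Foxp3*, which defines the lineage, stood at 6.35, 9.76 and 5.85 CPM in members against 5.92, 7.81 and 14.0 CPM in matched bins.

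Dendritic cell and epithelial genes were both among those with the largest fold changes. *Ccl20*, a ligand of CCR6, led with 27.5, 22.8 and 93.6 CPM in members against 4.02, 6.51 and 4.68 CPM in matched bins (3.02 ± 0.38; edgeR, adjusted p = 1.2e-10). It was followed by *Alox12e*, an epidermal lipoxygenase (2.71 ± 0.33), *Calcb*, a calcitonin gene-related peptide (2.63 ± 0.37), *Wfdc18* (2.49 ± 0.18) and *Apol7c*, an apolipoprotein gene of activated dendritic cells (2.48 ± 0.30). *Wfdc18* stood at 210.4, 195 and 214 CPM against 25.6, 69.0 and 26.9 CPM. Among the 20 largest were also *Reg3g*, a gut lectin (119, 228 and 58.5 CPM against 15.7, 89.1 and 10.5 CPM), and *Csn2*, a milk casein (73.0, 39.0 and 93.6 CPM against 14.8, 26.0 and 10.5 CPM), both best known from other organs. *Anxa3* and *Zmynd15* of the activated dendritic cell list were among them too (2.21 and 2.07), as was *Pmaip1*, an apoptosis gene known as a target of p53, at 33.8, 35.8 and 23.4 CPM against 7.83, 7.16 and 4.68 CPM. *Gm13305* and *Gm13304* (2.39 and 2.08) lie on chromosome 4 near the repeated *Ccl21* genes, where reads can be split between near-identical copies, so their values are uncertain. Against nearby bins (2 to 5 bins away), *Ccl20*, *Alox12e*, *Calcb*, *Apol7c*, *Reg3g*, *Csn2*, *Anxa3*, *Zmynd15* and *Pmaip1* did not pass. Their log2 fold changes there were 0.33 to 0.99 (edgeR, adjusted p from 0.057 to 0.59). *Wfdc18* passed at 0.57 ± 0.13, though in KO1308 it had 195 CPM in members and 249.8 CPM nearby.

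The 10 genes that fell most were mainly fat cell genes. *Cfd*, or adipsin, stood at 31.7, 84.6 and 0 CPM in members against 151, 869 and 4.68 CPM in matched bins. *Adipoq*, which encodes adiponectin, stood at 8.46, 3.25 and 0 CPM against 34.5, 115 and 1.17 CPM, and *Car3* at 14.8, 19.5 and 0 CPM against 127, 360.5 and 0.585 CPM. *Plin1*, of the lipid droplet coat, had no UMI in members and 12.9, 56.0 and 0.585 CPM in matched bins. *Gpd1*, of glycerol metabolism, and *Adig*, of fat cell differentiation, were also lower (5.29, 0 and 0 CPM against 71.5, 322 and 0.585 CPM for *Gpd1*). In WT1101 these genes were near the limit of counting in both kinds of bin, so the fall rests on the KO sections. The matched bins also held more mitochondrial UMIs, 1.82%, 3.12% and 0.794%, than the members with 0.901%, 0.844% and 0.651%, and the part of fat tissue in the other results of this comparison was not tested. Nearby bins, described next, had 0.993%, 0.85% and 0.66%.

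To set members against the tissue immediately around them, 2 bins without a UMI of the 4 genes were taken for each member from 2 to 5 bins away (630, 356 and 440 nearby bins). Of 13063 genes tested, 59 were higher (0.452%) and 33 lower (0.253%). All 59 were among the 766 higher than matched bins (7.70% of these), and 30 of the 33 among the 669 lower (4.48%), with the same members in both comparisons. The call depended on the test, since DESeq2 called only *Ccl5* higher and *Ighm*, *Igkc* and *Gm30211* lower. With 1 nearby bin from 2 to 3 bins away, edgeR called 7 higher and 13 lower.

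Of the 19 activated dendritic cell genes tested, 7 were higher than nearby and none lower, and all 19 had a log2 fold change above 0, with a median of 0.67. *Ccr7* stood at 179.8, 172 and 202 CPM in members against 101, 119 and 111 CPM nearby (0.77 ± 0.14; edgeR, adjusted p = 6.4e-05). *Gadd45b* stood at 125, 55.3 and 64.4 CPM against 64.7, 36.4 and 28.1 CPM (0.94 ± 0.20), and *Cacnb3* and *Bcl2a1b* rose by 0.84 and 0.82. Of the count of 7, none was left without KO1134 and 4 without WT1101, and DESeq2 called none, with 10 of 18 and 6 of 19 at an unadjusted p under 0.05 without KO1134 and in DESeq2. With nearby bins 2 to 3 bins away 1 of 19 passed and the median was 0.37, and 2 of 18 passed for members with *Ccl22* or *Ccl17*.

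Named by fold change, *Nr4a3*, an early response transcription factor, led the nearby comparison with 29.6, 35.8 and 64.4 CPM against 9.16, 9.93 and 28.1 CPM (1.51 ± 0.31; edgeR, adjusted p = 0.001). *Icosl* stood at 57.1, 91.1 and 41.0 CPM against 33.4, 31.4 and 14.8 CPM (1.09 ± 0.24; edgeR, adjusted p = 0.0029). *Relb* stood at 124, 97.6 and 93.6 CPM against 65.2, 67.8 and 38.5 CPM, *Traf1* rose by 0.88 ± 0.18, and *Serpinb9*, a granzyme inhibitor, by 0.88 ± 0.18. *Gadd45g*, a relative of *Gadd45b*, rose by 1.00 ± 0.26. The epithelial and secretory genes *Cyp2a5*, *Sprr2a2* and *Aire* were also in this group, at 1.29 ± 0.28, 0.99 ± 0.22 and 0.96 ± 0.24. *Aire* had 69.8, 45.5 and 61.4 CPM in members and 31.3, 31.4 and 34.1 CPM nearby. Of 11 alternative settings, *Gadd45g* passed in 2, and *Nr4a3*, *Sprr2a2* and *Aire* in 6 each. *Icosl*, *Relb*, *Traf1*, *Serpinb9* and *Cyp2a5* passed in 7 each.

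Abundant presentation genes rose by less but with small errors. *Cst3* stood at 1545, 901 and 1349 CPM in members against 1185, 787 and 763 CPM nearby (0.47 ± 0.07; edgeR, adjusted p = 2.5e-07). *Cd74* rose by 0.32 ± 0.06, *H2-Aa* by 0.37 ± 0.07 and *Ctss* by 0.35 ± 0.07, and 4 of 12 class II genes were higher. Of these 12, 2 passed without KO1134 and 2 without WT1101, and none in DESeq2 or with bins 2 to 3 away (3 at an unadjusted p under 0.05 in each). *H2-Eb1* also passed (0.33 ± 0.07), although in KO1308 it was lower in members (1249 CPM) than nearby (1380 CPM). *Ccl5* had the smallest p-value of the genes that rose, at 1746, 621 and 366 CPM against 1052, 427 and 228 CPM (0.68 ± 0.08; edgeR, adjusted p = 3.6e-12), and *Cxcl16* rose by 0.66 ± 0.16. *Lyz2* was the 1 macrophage gene of 10 to pass (0.41 ± 0.07). None of the 12 interferon response genes, 7 cDC2 genes or 8 B cell genes tested passed against nearby bins in edgeR or DESeq2, with 5, 0 and 0 at an unadjusted p under 0.05 in edgeR and none in DESeq2. Of the 9 epithelial genes, 4 passed (median 0.50; 1 of 7 without KO1134, 2 of 9 without WT1101, and none in DESeq2 or with bins 2 to 3 away, with 4 at an unadjusted p under 0.05 in each): *Aire*, *Epcam* (0.71 ± 0.18), *Krt14* (0.64 ± 0.16, though not higher in KO1308) and *Ccl21a* (0.41 ± 0.08). The summed epithelial level was 1917, 1603 and 1000 CPM in members against 1470, 1431 and 616 CPM nearby.

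Lower than in nearby bins (0.253% of all genes) were 3 of 7 plasma cell genes, 2 of 8 cortical epithelial genes, 1 of 7 cortical thymocyte genes (*Dntt*) and 1 of 8 endothelial genes (*Glycam1*). Without KO1134 these counts were 1 of 6, 1 of 8, 1 of 7 and 0 of 6 (1 endothelial gene at an unadjusted p under 0.05, edgeR). *Ighm* stood at 695, 1054 and 541 CPM against 1003, 1684 and 1221 CPM (-0.74 ± 0.07; edgeR, adjusted p = 7.0e-17), and *Jchain* fell by 0.48. *Igha* passed at -0.36 ± 0.06, but in WT1101 it had 1302 CPM in members and 1163 CPM nearby, and without KO1134 its log2 fold change was 0.02. *Dntt* stood at 194, 166 and 477 CPM against 281, 237 and 867 CPM (-0.67 ± 0.10), and the cortical epithelial genes *Ccl25* and *Prss16* both fell by 0.56. *Glycam1* stood at 43.4, 16.3 and 0 CPM against 116, 41.4 and 2.96 CPM (-1.42 ± 0.26; edgeR, adjusted p = 1.1e-04).

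Members that held *Ccl22* or *Ccl17* were set beside those chosen by *Fscn1* and *Il4i1* alone, without a test, since the rule's genes divide them. The first kind made up 142 of the KO1134 members, 95 of the KO1308 members and 157 of the WT1101 members. It had medulla-like surroundings in 71.8%, 48.4% and 83.4% of cases, against 55.5%, 47.0% and 61.9% of the second kind. For *Cacnb3* the first kind had 84.7 CPM [59.0, 118] in KO1134, 99.4 CPM [56.8, 161] in KO1308 and 71.4 CPM [41.6, 114] in WT1101. The second kind had 65.7 CPM [45.8, 91.4], 34.1 CPM [11.1, 79.7] and 38.5 CPM [10.5, 98.7]. It was higher in the first kind in each section, with overlapping intervals. *Ccr7* had no common direction, with 199, 161 and 223 CPM in the first kind and 165, 184 and 154 CPM in the second. For *H2-Aa* in WT1101, the first kind had 1185 CPM (1050 to 1331) and the second 665 CPM (517 to 842).

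Between the sections, the members' values can only be set side by side. The summed activated dendritic cell genes came to 2561 CPM [2460, 2665] in the members of KO1134, 2088 CPM [1929, 2256] in those of KO1308 and 2112 CPM [1961, 2272] in those of WT1101. KO1308 and WT1101 had overlapping intervals, and both were below KO1134. The summed class II genes stood at 11372, 9422 and 6863 CPM in members and at 5476, 4787 and 2402 CPM in matched bins, so WT1101 was the lowest in both kinds of bin. *Cxcr3*, a receptor of effector T cells, stood at 82.5, 87.8 and 8.78 CPM in members and at 25.2, 31.2 and 5.85 CPM in matched bins. *Itgae*, the CD103 integrin of cDC1 and of some T cells, stood at 106, 114 and 20.5 CPM in members and at 34.5, 41.6 and 24.0 CPM in matched bins, higher in members of both KO sections but not in WT1101. *Ccl5* followed another order, with 1746 CPM in KO1134 and 621 and 366 CPM in the other two.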

How the data were processed

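Spatial transcriptomes of 3 thymus sections were used. UMI counts of each gene in each barcoded spot were deposited by the authors as whole numbers with no scaling, after BSTMatrix and STAR, and the labels name GRCm38. Spots were summed in 27 µm bins. Members, lists and comparisons were chosen with earlier results of these data known. UMIs were summed over members and over control bins of each section (6 sums) and tested with edgeR 4.0.16 (TMM, at least 30 UMIs over the sums), with DESeq2 1.42.0 as an alternative. Identifiers of 103 shared symbols were summed. Members summed to 945608, 307487 and 341831 UMIs in KO1134, KO1308 and WT1101, so a count of 0 allows up to 3.17, 9.76 and 8.78 CPM. Named were, per list, up to 4 called genes of smallest p and 2 uncalled genes of highest CPM, and the 20 largest and 10 smallest fold changes with at least 100 UMIs and the same direction in 3 sections (10 for nearby bins). *Lamp3*, *Foxp3*, *Ccr4*, *Ido1*, *Il12b*, *Il6*, *Ivl*, *Igkc* and *Gm30211*, and *Jchain*, *Igha* and other list genes in the nearby comparison, were named after their values were seen. Positions are from GENCODE M21, which holds 99.8% of the gene identifiers. Python 3.11.15 and R 4.3.3 were used, and the fits were tested on simulated data. Alternatives varied controls, rule, bin width, filters, normalisation, block and sections. Some results that the naming rule covers are not reported here.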

Additional observations from a re-analysis of the deposited data

Results flagged for a closer look

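In 3 results both KO sections moved one way and the WT section the other, and the difference was not tested, with 1 WT section. Differences are log2 ratios of CPM plus 1. *Itgae* in members against matched bins differed by 1.59 in KO1134 (100 UMIs in members), 1.43 in KO1308 (35 UMIs) and -0.22 in WT1101 (7 UMIs). *Cxcr6* in the same comparison differed by 1.27, 0.98 and -0.53, where the WT value rests on 1 UMI in members and 8 in matched bins. *Igha* in members against nearby bins differed by -0.95, -0.13 and 0.16, from 445 to 2285 UMIs in members.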

How the results depend on the processing

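Against matched bins, 766 genes were higher and 669 lower, and the counts moved by over 1.5 times in one or both directions as follows: 443 and 300 with 1 control bin per member, 273 and 109 with DESeq2, 417 and 388 with at least 3 UMIs of the 4 genes, 255 and 200 in bins of 20 µm, 1724 and 1674 in bins of 50 µm, 120 and 108 with matched bins from the same surroundings, 483 and 399 without *Il4i1* in the rule, and 506 and 348 with members that held *Ccl22* or *Ccl17*, an alternative chosen after seeing the data. Leaving out each section gave 459 to 622 higher and 315 to 414 lower. Without the replicate block, edgeR called 0 and 0, with 646 and 420 at an unadjusted p under 0.05. The block is the section, from which both sums of a pair come; replicate numbers of KO and WT mice are only names and pair no mice. Against nearby bins, 59 and 33 became 7 and 13 with bins 2 to 3 away, 1 and 3 with DESeq2, and 19 and 19 for members with *Ccl22* or *Ccl17*. Leaving out each section gave 17 (without KO1134) to 73 higher and 7 to 35 lower. Without the block edgeR called 0 and 0, with 85 and 58 at an unadjusted p under 0.05.

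Among named genes, 1449 results against matched bins kept their call under an alternative, 245 lost the call and 11 gained it. Against nearby bins 205 kept it and 135 lost it. Genes called in neither setting count as kept even where their direction changed. Reversed, with a call in at least 1 of the settings, were *Cd79b* (0.72) and *Glycam1* (0.19) in bins of 50 µm. So were *Ms4a4b* (-0.05) with matched bins from the same surroundings, and *Igha* against nearby bins without KO1134 (0.02, against -0.54 without WT1101). The cause was not tested.

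The share of members in KO1134, KO1308 and WT1101 was 1.02%, 0.606% and 0.299% in bins of 20 µm, 13.6%, 4.30% and 3.90% in bins of 50 µm, 1.14%, 0.356% and 0.279% with at least 3 UMIs, 0.219%, 0.213% and 0.251% thinned to 500 UMIs, and 0.695% and 0.411% in KO1134 and WT1101 thinned to 1000 UMIs. In KO1308 it was 1.40% with at least 500 genes. The 4 genes' level (121, 150.0 and 98.2 CPM) became 128 CPM in KO1134 and 111 CPM in WT1101 thinned to 500 UMIs, 157 CPM in KO1308 with at most 10% mitochondrial UMIs, and in WT1101 94.3 CPM in bins of 20 µm, 94.2 CPM with at least 500 genes and 87.6 CPM thinned to 1000 UMIs. Medulla-like surroundings at 1.5 times held 69.8% of KO1134 and 63.5% of KO1308 members.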
